A study of Homo sapiens with 12 samples.

Results

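The zinc finger genes of human chromosome 19 were followed in 2 cancer cell lines in which CBX7 had been silenced. They were taken as the protein-coding genes of chromosome 19 whose symbol is ZNF followed by digits alone. This rule, which used names and positions and no measured value, found 240 of the 58735 genes in the table of the line 786-O, and all 240 symbols are also in the table of the line 5637. They make up 50.5% of the 475 protein-coding genes named in this way on all chromosomes.

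C2H2 zinc finger proteins bind DNA through arrays of fingers, short folds that each hold a zinc ion. Most of those encoded on chromosome 19 also carry a KRAB domain, which recruits the corepressor TRIM28 and through it the histone methyltransferase SETDB1 and heterochromatin protein 1 (the CBX1, CBX3 and CBX5 gene products). Many of them bind retroelements and keep these silent. The genes arose by tandem duplication and lie in large clusters, and the last exons of many are themselves covered by the repressive mark H3K9me3. CBX7 encodes a chromobox subunit of the Polycomb complex PRC1, which reads another repressive mark, H3K27me3.

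The RNA-seq libraries fell into 4 groups of 3, namely 786-O shCBX7, 786-O sh control, 5637 shCBX7 and 5637 sh control. The line 786-O comes from a clear cell renal carcinoma and 5637 from a bladder carcinoma, both were kept in RPMI-1640 with fetal serum, and no drug was given. The treated cells carried a short hairpin RNA against CBX7 and the control cells a control hairpin, the hairpin sequences are not used here, and the table columns call the arms si in place of sh. The labels do not say whether the libraries of a group came from separate cultures, from a pool or from a clone, so the p-values rest on a spread between libraries that may be technical. Values are FPKM (fragments per kilobase of gene, scaled to a library total), with a separate table for each line, so levels are compared within a line and not between lines.

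CBX7 itself was at 61.0% of its control level in 786-O shCBX7 cells (1.01, 0.892 and 1.07 FPKM, against 1.63, 1.75 and 1.49 FPKM in control cells). It was at 83.3% in 5637 shCBX7 cells (1.86, 1.80 and 1.97 FPKM, against 2.19, 2.17 and 2.42 FPKM). Both decreases passed the limma test over all genes (log2 change -0.40, adjusted p = 0.00364 in 786-O; log2 change -0.18, adjusted p = 0.0188 in 5637), while the exact two-sided permutation test gave 0.1 in each line, the smallest p that 3 libraries against 3 allow. Reads recovered in listed genes numbered 16384151 to 18868874 per library in 786-O and 17114775 to 28165431 in 5637, of which 20336 to 28785 fell in the 240 genes in 786-O and 59857 to 99088 in the 225 of them with whole reads in 5637. No pair of libraries was identical, with correlations between libraries of an arm of 0.991 to 0.993 in 786-O and 0.995 to 0.996 in 5637. PAX8, a renal transcription factor, averaged 30.3 FPKM in shCBX7 and 37.8 FPKM in control cells of 786-O. Of the other renal markers, PAX2, CDH6 and CA9 were also lower on average in shCBX7 cells, and EPAS1, LHX1, CUBN and NNMT higher. The basal keratin KRT5 averaged 265 FPKM in shCBX7 and 190 FPKM in control cells of 5637. Of the other urothelial markers, KRT17, KRT14, TP63, UPK2, PPARG and FOXA1 were also higher on average in shCBX7 cells, and GATA3, KRT13 and UPK3A lower.

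In 786-O, silencing of CBX7 went with higher messages of the chromosome 19 zinc finger genes. The summed level of the 240 genes was 347, 341 and 344 FPKM in the shCBX7 libraries, against 294, 287 and 293 FPKM in the control libraries. The median gene stood at 0.714, 0.748 and 0.735 FPKM in the shCBX7 libraries and at 0.483, 0.562 and 0.511 FPKM in the control libraries. Neither measure overlapped between the arms. Genes at 1 FPKM or more numbered 84 to 93 in a shCBX7 library, against 66 or 67 in a control library. Since RNA was taken from bulk cultures, more RNA per cell and more cells holding the RNA cannot be told apart.

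The test was run over every gene with a mean of at least 0.5 FPKM in the 6 libraries of a line, on log2(FPKM + 1), a scale on which the change of weakly expressed genes is understated. Of the 240 genes, 141 could be tested in 786-O, and 99 could not, 13 of them listed at 0 in all 6 libraries. Among the 141, 59 were called higher in shCBX7 cells and 7 lower (limma, adjusted p under 0.05). Over all 13220 genes tested in this line 24.7% were called higher and 26.2% lower, so that the zinc finger genes were called higher more often than the background, at 41.8%, and called lower less often, at 4.96%. The median log2 change was 0.22, beside -0.01 over all genes tested. Arms that did not overlap were found in 83 genes with the shCBX7 libraries on top and in 10 with the control libraries on top, beside 29.2% and 31% of all genes. Without shCBX7 replicate 3 the count called higher was 39, and without shCBX7 replicate 2 or control replicate 3 the count called lower was 4.

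The rises in 786-O were moderate. Among the 59 genes called higher the ratio of the mean in shCBX7 to the mean in control cells ran between 1.21 and 3.44, with a median of 1.63, and the 7 genes called lower had ratios between 0.516 and 0.765. Only 6 of the called genes, ZNF616, ZNF468, ZNF93, ZNF253, ZNF563 and ZNF558, were at least 2-fold higher, which is 4.26% of those tested and near the 4.39% of all genes. ZNF563 was named after its values were seen. A gene that passed the filter only through its higher arm had to differ, and 15 of the 141 had a control mean under 0.5 FPKM, ZNF468, ZNF525, ZNF708, ZNF433 and ZNF563 among them. Among the other 126, 52 were called higher.

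In 5637 the sum and the median of the 240 genes were also higher in shCBX7 cells. The sum was 650, 662 and 658 FPKM in the shCBX7 libraries, against 609, 622 and 619 FPKM in the control libraries, and the median gene stood at 1.62, 1.65 and 1.62 FPKM against 1.43, 1.56 and 1.53 FPKM. Again no shCBX7 library overlapped a control library in either measure. Here 179 of the 240 genes could be tested, 61 could not, and 5 of these were listed at 0 throughout. Of the 179, 52 were called higher in shCBX7 cells and 9 lower (limma), beside 24.4% and 20.2% of all 12689 genes tested. The share called higher, 29.1%, was thus near that of all genes, while the share called lower, 5.03%, was below it. Within ranges of the mean level, given further on, the picture differed. Under 5 FPKM the share called higher was above that of other protein-coding genes, and at 5 FPKM or more it was below. The median log2 change was 0.05, beside 0.01 over all genes. The called rises ran between 1.07-fold and 1.80-fold with a median of 1.29, and 0 reached 2-fold, beside 0.26% of all genes. Arms that did not overlap were found in 65 genes with shCBX7 on top and 14 with control on top, beside 30.7% and 25.7% of all genes.

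**Figure D1:**
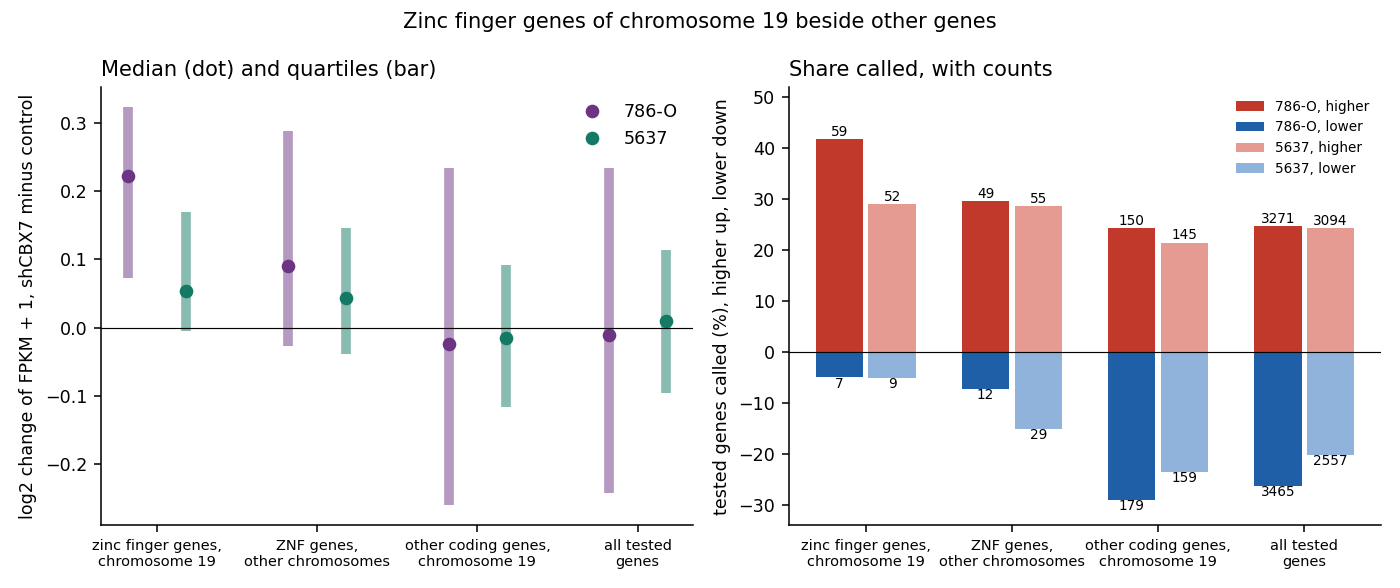
The left panel plots the median and quartiles of the log2 change of FPKM + 1 (shCBX7 minus control) for 4 sets of tested genes in each line, and the right panel the percentage called higher (upward bars) and lower (downward bars) by limma with the number of genes at each bar. In 786-O the median of the chromosome 19 zinc finger genes is 0.22, above the other sets, and in both lines their downward bars, 7 and 9 genes, are the shortest.

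Zinc finger genes elsewhere and other genes of the chromosome were set beside the 240. Among the ZNF genes of other chromosomes, 49 were called higher and 12 lower of 165 tested in 786-O, with a median log2 change of 0.09, and 55 higher and 29 lower of 192 in 5637, with a median of 0.04. The other protein-coding genes of chromosome 19 had medians of -0.02 in both lines, with 150 called higher and 179 lower of 616 in 786-O and 145 higher and 159 lower of 674 in 5637. Those other genes thus lay near the background of all genes, and the ZNF genes of other chromosomes lay between the sets in 786-O. In 5637 the ZNF genes of other chromosomes were called higher about as often as the 240, at 28.6% beside 29.1%. They were called lower more often, at 15.1% beside 5.03%. Chromosome 19 also holds zinc finger genes with other names (ZFP, ZSCAN, KLF and ZBTB genes and ZNF symbols with a letter). Of these, 4 of 12 tested were called higher and 2 lower in 786-O, and 8 of 16 were called higher and 0 lower in 5637.

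ZNF93 had the largest rise in 786-O. It encodes a KRAB protein with 16 finger patterns that is known to bind and repress some LINE-1 elements. The 786-O libraries held it at 6.66, 6.20 and 6.35 FPKM in shCBX7, against 2.34, 2.67 and 2.44 FPKM in control (log2 change 1.09, SE 0.0598, limma adjusted p = 1.04e-05). In 5637 it was 1.85, 1.86 and 1.86 FPKM, against 1.42, 1.20 and 1.36 FPKM (log2 change 0.29, SE 0.0479, limma adjusted p = 0.00278). The arms did not overlap in either line, and the ratio of means was 2.58 in 786-O and 1.39 in 5637. ZNF253, the gene before it in order of position, was called higher in both lines too, at 1.90, 1.65 and 1.79 FPKM in shCBX7 and 0.810, 0.707 and 0.735 FPKM in control libraries of 786-O and at 3.85, 3.80 and 3.80 FPKM against 2.87, 2.84 and 2.97 FPKM in 5637.

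ZNF616 had the largest ratio of any called gene of the set. Its protein has a KRAB A box and 21 finger patterns. In 786-O it stood at 1.84, 1.81 and 1.81 FPKM in the shCBX7 libraries and at 0.416, 0.480 and 0.694 FPKM in the control libraries, a ratio of 3.44 (log2 change 0.89, SE 0.0877, limma adjusted p = 1.43e-04). In 5637 the levels were 4.16, 4.47 and 4.46 FPKM in shCBX7 cells and 3.25, 3.20 and 2.96 FPKM in control cells (log2 change 0.38, SE 0.0411, limma adjusted p = 5.52e-04). The control libraries of 786-O held the fewest reads of this gene, 34 at the lowest, against 171 in the highest shCBX7 library.

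ZNF761, a KRAB gene with 17 finger patterns, had changes of similar size in both lines on the scale of log2(FPKM + 1). That scale understates the change of weakly expressed genes, so the ratios of means need not be alike. It was at 2.07, 2.68 and 2.25 FPKM in shCBX7 and 1.03, 1.18 and 1.49 FPKM in control libraries of 786-O (log2 change 0.58, SE 0.104, limma adjusted p = 0.00271). In 5637 it was at 9.53, 10.2 and 9.48 FPKM in shCBX7 and 5.81, 6.54 and 6.45 FPKM in control libraries (log2 change 0.56, SE 0.047, limma adjusted p = 2.01e-04). It had the largest called rise on the log scale in 5637. The difference between the lines on this scale was -0.02 (SE 0.116, limma adjusted p = 0.919), which does not show that the lines act alike.

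**Figure D2:**
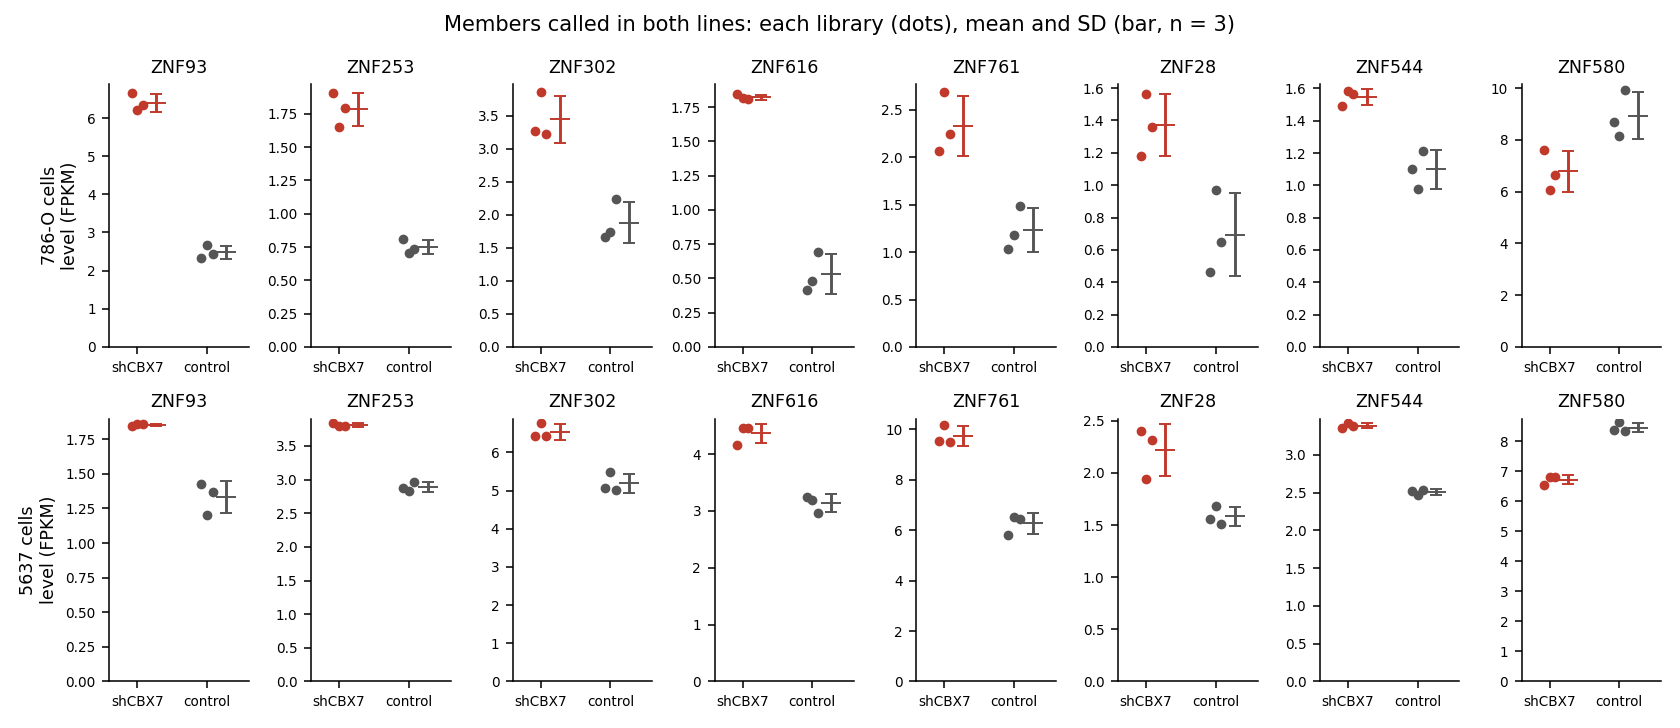
Each panel plots the FPKM of 1 gene in the 3 shCBX7 (red, left) and 3 control libraries (grey, right) with the mean and SD, for 786-O above and 5637 below, on axes that start at 0. In the first 7 genes every shCBX7 library lies above every control library in both lines, and in ZNF580 every shCBX7 library lies below.

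The fall of the set was led in 786-O by ZNF784 and shared between the lines only by ZNF580. ZNF784 was at 1.49, 1.28 and 1.42 FPKM in the shCBX7 libraries and at 3.06, 2.76 and 2.30 FPKM in the control libraries of 786-O, a ratio of 0.516 (log2 change -0.62, SE 0.0899, limma adjusted p = 9.32e-04). In 5637 its arms overlapped, at 2.26, 2.29 and 2.61 FPKM in shCBX7 and 2.27, 1.99 and 1.88 FPKM in control libraries. ZNF580 was at 7.62, 6.08 and 6.65 FPKM in shCBX7 and 8.70, 8.17 and 9.95 FPKM in control libraries of 786-O (log2 change -0.35, limma adjusted p = 0.0154). In 5637 it was at 6.55, 6.81 and 6.83 FPKM in shCBX7 and 8.38, 8.64 and 8.36 FPKM in control libraries (log2 change -0.29, limma adjusted p = 2.94e-04). No KRAB A box pattern was found in either protein. The ZNF580 gene overlaps its neighbour ZNF581 on the same strand, so reads of the pair may be shared. The 786-O call of ZNF580 was lost without shCBX7 replicate 2 and without control replicate 3 (limma adjusted p = 0.0523 and 0.0504).

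The promoters of these 5 genes are printed to show the sequence at the start of each gene. ZNF93, ZNF616 and ZNF761 were taken for their rises, ZNF784 for the largest fall in 786-O and ZNF580 as the only fall called in both lines. They are RefSeq sequences of build GRCh38.p14, 250 bases before to 50 after each RefSeq start, written 5′ to 3′ on the strand of the gene. Capitals mark GGGCGG (the SP1 box) and CCGGAAG (an ETS site) and their reverse complements. The windows are chr19:19900696-19900995 on the + strand for ZNF93, chr19:52139889-52140188 on the - strand for ZNF616, chr19:53431734-53432033 on the + strand for ZNF761, chr19:55624517-55624816 on the - strand for ZNF784 and chr19:55640752-55641051 on the + strand for ZNF580.
ZNF93: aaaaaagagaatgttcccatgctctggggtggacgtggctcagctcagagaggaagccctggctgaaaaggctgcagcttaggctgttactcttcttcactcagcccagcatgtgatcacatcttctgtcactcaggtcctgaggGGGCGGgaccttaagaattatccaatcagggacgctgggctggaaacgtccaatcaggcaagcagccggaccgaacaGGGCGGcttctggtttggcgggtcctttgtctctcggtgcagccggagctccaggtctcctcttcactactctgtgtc
ZNF616: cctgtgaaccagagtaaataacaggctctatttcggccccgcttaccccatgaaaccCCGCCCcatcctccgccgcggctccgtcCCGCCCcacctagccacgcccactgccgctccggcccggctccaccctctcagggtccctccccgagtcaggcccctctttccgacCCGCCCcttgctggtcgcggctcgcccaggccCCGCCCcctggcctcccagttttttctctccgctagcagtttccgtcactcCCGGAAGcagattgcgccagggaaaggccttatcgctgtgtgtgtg
ZNF761: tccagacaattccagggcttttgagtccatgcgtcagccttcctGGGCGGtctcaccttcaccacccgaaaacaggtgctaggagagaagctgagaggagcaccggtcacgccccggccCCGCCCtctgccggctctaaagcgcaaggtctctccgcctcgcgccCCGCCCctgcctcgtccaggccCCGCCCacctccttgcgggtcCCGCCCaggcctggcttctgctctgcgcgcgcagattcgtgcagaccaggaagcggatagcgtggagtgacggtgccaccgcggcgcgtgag
ZNF784: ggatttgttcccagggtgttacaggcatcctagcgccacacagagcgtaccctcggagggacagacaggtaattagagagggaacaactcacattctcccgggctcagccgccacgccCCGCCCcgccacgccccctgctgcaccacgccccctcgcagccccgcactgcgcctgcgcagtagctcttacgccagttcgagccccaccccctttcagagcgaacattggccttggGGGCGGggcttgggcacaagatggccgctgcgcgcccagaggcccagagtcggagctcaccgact
ZNF580: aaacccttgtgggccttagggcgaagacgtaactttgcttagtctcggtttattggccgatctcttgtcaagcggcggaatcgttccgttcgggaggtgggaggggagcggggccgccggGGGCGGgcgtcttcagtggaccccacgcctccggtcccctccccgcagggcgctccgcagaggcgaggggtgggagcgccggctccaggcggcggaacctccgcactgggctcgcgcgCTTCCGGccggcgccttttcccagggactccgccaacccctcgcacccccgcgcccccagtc

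Promoters of this kind were common in the set. RefSeq promoters were matched by symbol for 209 of the 240 genes. GGGCGG was found on either strand in 69.9% of them and in 44.6% of all 27305 promoters, and CCGGAAG in 44.5% and 10.7%. The 27305 promoters were not limited to protein-coding genes, as the set was. The other motifs searched were rarer, with AAGATGGC (the YY1 core) in 6.2% of the set and 3.0% of all promoters, and ACTACAA (a ZNF143 core) in 5.3% and 3.0%. Matches of different motifs may share bases and were counted for each. The median promoter of the set held 20 CpG dinucleotides, that of all 27305 promoters 14. Of the 93 genes with CCGGAAG, 24 were called higher and 2 lower of 58 tested in 786-O, and of the 116 without it 30 were called higher and 5 lower of 70. In 5637 it was 21 higher and 2 lower of 68 with CCGGAAG, and 20 higher and 7 lower of 92 without it. For GGGCGG the counts in 786-O were 42 higher and 7 lower of 90 genes with the motif, and 12 higher and 0 lower of 38 without it. In 5637 they were 31 higher and 6 lower of 109 with it, and 10 higher and 3 lower of 51 without it. A match is a stretch of letters and not a bound site.

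Along the chromosome the genes fell into 16 clusters when a gap of over 1 Mb between starts opened a new cluster, 5 of them with a single gene. In the 8 clusters with at least 5 tested genes in a line, the median log2 change lay above that of all genes in each line, at 0.09 to 0.38 in 786-O and at 0.02 to 0.18 in 5637. The rise in 786-O was therefore not held by a single array, but it was uneven. In cluster 9, ZNF565 to ZNF573, with the lowest of these medians, 1 of 10 tested genes was called higher and 0 lower in 786-O. Among all genes tested there, 24.7% were called higher and 26.2% lower. The changes of neighbouring tested genes correlated at 0.24 in 786-O (128 pairs) and 0.03 in 5637 (164 pairs). These pairs share a library, and some overlap.

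**Figure D3:**
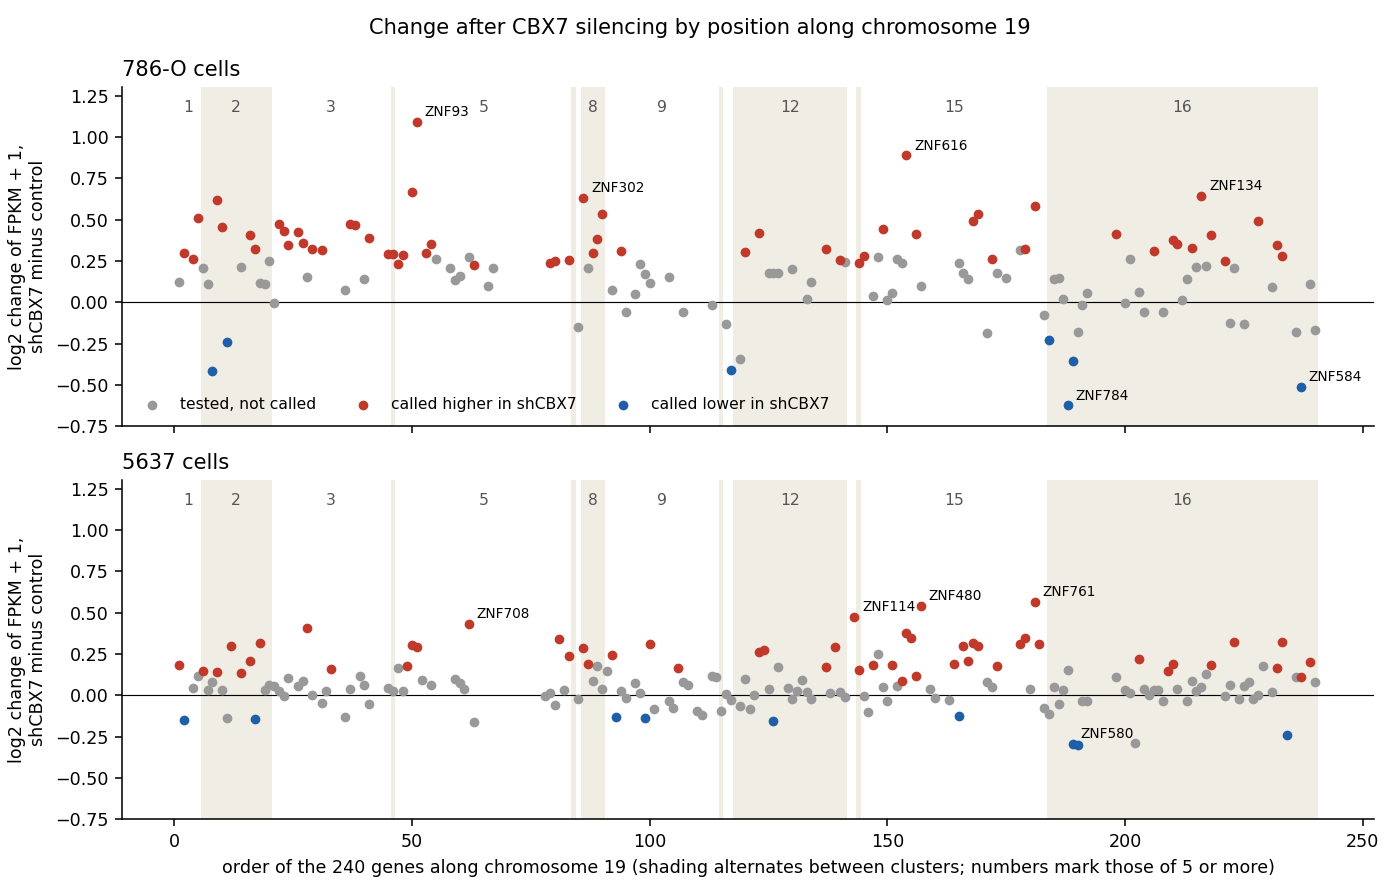
Each point is a tested gene, placed by its order along chromosome 19 (horizontal axis) and its log2 change of FPKM + 1, shCBX7 minus control (vertical axis), for 786-O above and 5637 below, with called genes in red (higher) and blue (lower). In 786-O red points run from the first cluster to the last, with 11 in cluster 3 but 1 in cluster 9, while in 5637 they gather most in cluster 15, with 17.

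Cluster 3, ZNF653 to ZNF791 (GRCh38 chr19:11483427-12640098, 25 genes), held many calls in 786-O and few in 5637. Of its 15 tested genes in 786-O, 11 were called higher, and in order of position these were ZNF627, ZNF823, ZNF441, ZNF440, ZNF439, ZNF700, ZNF433, ZNF44, ZNF563, ZNF443 and ZNF791. Their ratios ran between 1.37 for ZNF700 and 2.21 for ZNF563. ZNF433 and ZNF563 had control means of 0.386 and 0.454 FPKM in 786-O. They passed the filter only through the shCBX7 arm and so had to differ. In 5637 only ZNF69 and ZNF844 were called higher of 17 tested. ZNF69 stood at 3.41, 2.98 and 3.39 FPKM in shCBX7 and 2.25, 2.03 and 2.36 FPKM in control libraries of 5637 (log2 change 0.41, limma adjusted p = 0.00159), and its arms overlapped in 786-O. The difference between lines was called for 9 of 16 genes with the change lower in 5637 and for 1, ZNF69, with the change higher in 5637 (limma interaction).

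Cluster 5, ZNF101 to ZNF254 toward the centromere (chr19:19668796-24129961, 37 genes), holds ZNF93 and ZNF253. All 17 of its tested genes had a log2 change above 0 in 786-O and 10 were called higher, while in 5637 15 of 18 were above 0 and 6 were called higher. ZNF708 had the largest ratio of the genes called in 5637, 1.80, at 1.48, 1.28 and 1.46 FPKM in shCBX7 and 0.787, 0.833 and 0.736 FPKM in control libraries. ZNF91, whose protein represses SVA elements and which was named after its values were seen, was at 0.974, 0.911 and 0.939 FPKM in shCBX7 and 0.536, 0.719 and 0.694 FPKM in control libraries of 786-O (log2 change 0.24, limma adjusted p = 0.0427). In 5637 its arms overlapped, at 2.67, 2.66 and 2.80 FPKM against 2.58, 2.64 and 2.79 FPKM. Of the genes in the small cluster of ZNF302 to ZNF792 (chr19:34677639-34964049), 4 of 5 were called higher in 786-O and 2 of 5 in 5637, with ZNF302 called in both.

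Cluster 15, ZNF175 to ZNF331 (chr19:51571298-53580269), held the most calls of a rise in 5637. All 39 of its genes encode a KRAB A box. There 17 of 31 tested genes were called higher and 1, ZNF83, lower in 5637, while 9 of 24 were called higher and 0 lower in 786-O. ZNF480 was at 3.80, 3.88 and 3.67 FPKM in shCBX7 and 2.05, 2.58 and 2.26 FPKM in control libraries of 5637 (log2 change 0.54, SE 0.0605, limma adjusted p = 6.06e-04), and its arms overlapped in 786-O. The difference between lines was called for 7 of 30 genes with the change lower in 5637 and 2, ZNF480 and ZNF813, with the change higher. Both lines called ZNF616, ZNF766, ZNF28, ZNF468, ZNF525 and ZNF761 higher, and the 786-O call of ZNF525 was lost under 4 alternatives (limma adjusted p = 0.0540 to 0.0829). In 786-O the control means of ZNF468 and ZNF525 were under the filter. ZNF28 and ZNF468 overlap on the same strand, and ZNF836 shares 11.8% of its 75-base windows with other genes, so reads may be split between such genes.

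Cluster 16, ZNF628 to ZNF446 at the end of the long arm (chr19:55476332-58481230, 57 genes), held 4 of the 7 falls of 786-O and 3 of the 9 of 5637. These were 4 of 37 genes tested in 786-O and 3 of 45 in 5637, beside 26.2% and 20.2% of all genes called lower. The first 9 genes of the cluster form a run in which no KRAB A box pattern was found (chr19:55476332-56160893), picked out after the values were seen. In order they are ZNF628, ZNF579, ZNF524, ZNF865, ZNF784, ZNF580, ZNF581, ZNF787 and ZNF444. All 9 were tested in both lines, 0 were called higher in either, and ZNF628, ZNF784 and ZNF580 were called lower in 786-O and ZNF580 and ZNF581 in 5637. The falls of the run, 3 of 9 in 786-O and 2 of 9 in 5637, were near the shares of all genes called lower. In the rest of the cluster 11 were called higher and 1 lower of 28 in 786-O, and 9 higher and 1 lower of 36 in 5637. Over all genes tested, 24.7% were called higher in 786-O and 24.4% in 5637, so the rises of the rest in 5637 were near that share. ZNF581 was at 18.5, 19.7 and 19.4 FPKM in shCBX7 and 24.0, 23.5 and 24.0 FPKM in control libraries of 5637 (log2 change -0.30, SE 0.0278, limma adjusted p = 3.12e-04). In 786-O the arms of ZNF581 overlapped, at 18.5, 14.4 and 15.4 FPKM against 21.0, 16.2 and 17.9 FPKM. ZNF628, at a limma adjusted p of 0.0309, lost its call in 786-O under 8 alternative settings.

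Genes with and without a KRAB A box pattern differed in their counts. A search of the GENCODE 29 coding sequences found a KRAB A box pattern in 203 of the 240 proteins and 0 to 36 C2H2 finger patterns, with a median of 12. In 786-O, 53 of the 114 tested KRAB genes were called higher and 2 lower, with a median log2 change of 0.24, and 6 of the 27 tested genes without the pattern were called higher and 5 lower, with a median of 0.06. Over all genes tested in 786-O, 24.7% were called higher and 26.2% lower. Genes without the pattern, at 22.2% and 18.5%, lay nearer to these shares than KRAB genes, at 46.5% and 1.75%. In 5637, 50 of 151 KRAB genes were called higher and 6 lower, and 2 of 28 genes without the pattern were called higher and 3 lower. That is 33.1% and 3.97% with KRAB and 7.14% and 10.7% without it, beside 24.4% and 20.2% of all genes. ZNF699 and ZNF584 were the KRAB genes called lower in 786-O, while ZNF146 and ZNF473 were the genes without the pattern called higher in 5637. The classes rest on this pattern alone, which can miss a KRAB domain. A gene without KRAB means here and below a gene without a match. The difference between the classes was not tested, since the genes share their libraries and arrays.

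GC content and level ran along with the KRAB pattern. The tested genes with KRAB had a median transcript GC of 42.4% in both lines, and those without it 61.9% in 786-O and 61.8% in 5637. The median control level was 0.768 FPKM in 786-O and 2.02 FPKM in 5637 for genes with KRAB, and 3.38 and 5.68 FPKM for genes without it. At a GC of 45% or more, 15 of 31 KRAB genes were called higher and 1 lower in 786-O, against 2 higher and 5 lower of 20 genes without KRAB. These classes were still not matched, with median GC of 47.4% and 65.1% and median control levels of 1.01 and 4.42 FPKM. In 5637 it was 14 higher and 1 lower of 39 KRAB genes, against 1 higher and 2 lower of 20 genes without KRAB. Below 45%, 38 of 83 KRAB genes and 4 of 7 genes without KRAB were called higher in 786-O. In 5637 it was 36 of 112 and 1 of 8. Across all tested protein-coding genes GC content and log2 change correlated at -0.03 in 786-O and -0.06 in 5637 (11069 and 11560 genes), and across the zinc finger genes at -0.41 and -0.15 (141 and 179 genes). These are descriptions across genes that share their libraries. After a correction for GC content and length, added after the data were seen, 60 genes were called higher and 7 lower in 786-O and 46 higher and 11 lower in 5637.

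**Figure D4:**
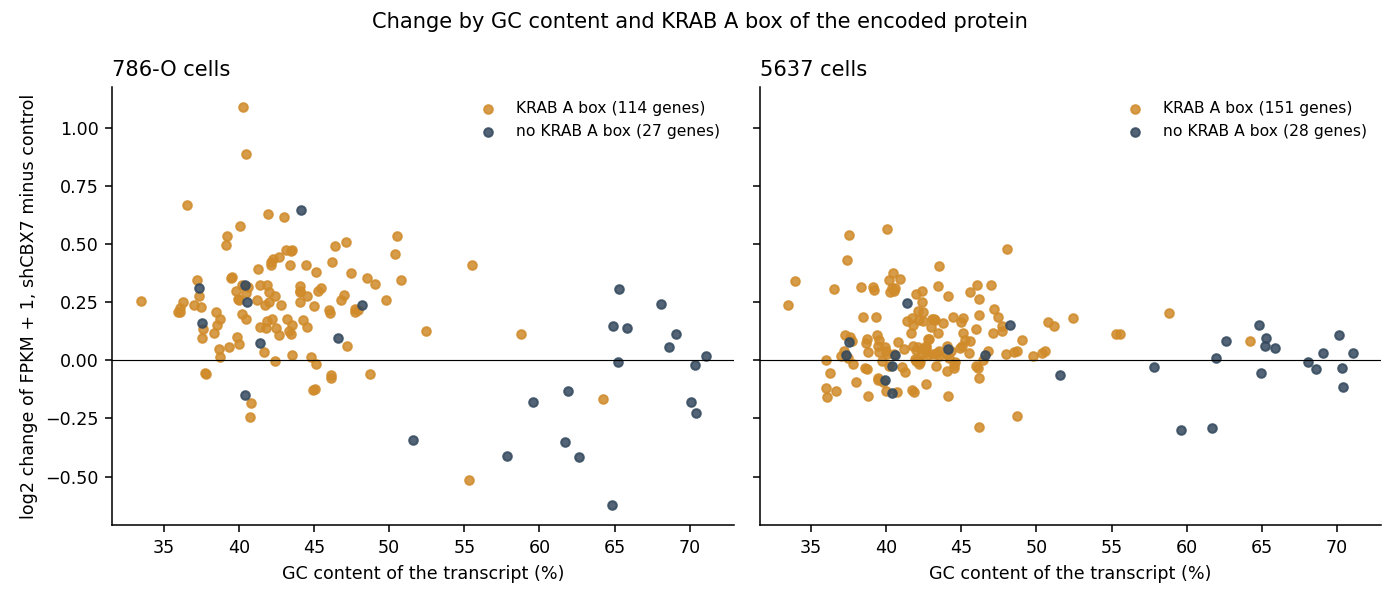
Each point is a tested zinc finger gene of chromosome 19, placed by the GC content of its transcript (horizontal, percent) and its log2 change of FPKM + 1, shCBX7 minus control (vertical), in 786-O (left) and 5637 (right), with colour marking the KRAB A box. KRAB genes lie mostly between 35% and 50% GC and above 0 in 786-O, and the genes without KRAB at over 55% GC lie on both sides of 0 there.

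The comparison with other genes was repeated within ranges of the mean level. At a mean of 1 to 2 FPKM in 786-O, 25 of 47 zinc finger genes were called higher and 2 lower, beside 16.6% and 20.5% of 1368 other protein-coding genes at that level. At 2 to 5 FPKM it was 12 higher and 4 lower of 22, beside 22.3% and 27.9%. At 5 FPKM or more it was 2 higher and 1 lower of 11, beside 30.5% and 34.0%, so the few highly expressed genes of the set were called no more often than other genes. In 5637 the share called higher was 21.4% of 28 at 0.5 to 1 FPKM, beside 6.37% of other protein-coding genes. It was 29.8% of 47 at 1 to 2 FPKM and 35.6% of 73 at 2 to 5 FPKM, beside 17.1% and 23.5%, and 19.4% of 31 at 5 FPKM or more, beside 30.1%.

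The 5 genes with the highest control level were taken in each line. In 786-O they were ZNF787, ZNF581, ZNF146, ZNF428 and ZNF358, and ZNF428 alone was called, at 16.6, 17.9 and 17.8 FPKM in shCBX7 and 14.3, 12.6 and 14.9 FPKM in control libraries (log2 change 0.31, limma adjusted p = 0.0076). In 5637 the 5 were ZNF146, ZNF581, ZNF121, ZNF358 and ZNF317. ZNF146, which encodes a protein made almost wholly of fingers, was at 40.0, 42.3 and 42.6 FPKM in shCBX7 and 34.2, 35.6 and 35.0 FPKM in control libraries of 5637 (log2 change 0.25, limma adjusted p = 7.32e-04), while its arms overlapped in 786-O. ZNF121 fell in 5637, and ZNF317 and ZNF358 were not called there. ZNF317 was called in 786-O, at 6.95, 7.02 and 6.32 FPKM in shCBX7 and 4.46, 4.56 and 4.95 FPKM in control libraries (log2 change 0.46, limma adjusted p = 6.86e-04).

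Between the lines the changes ran partly together. Of the 133 genes tested in both, 86 had a log2 change above 0 in both, and the changes correlated at 0.34 across genes. Of these genes 19, or 14.3%, were called higher in both lines, beside 8.41% of all genes tested in both, and ZNF580 alone was called lower in both, beside 6.26%. Calls in opposite directions were found for ZNF555 and ZNF121, higher in 786-O and lower in 5637, beside 4.7% of all genes, and for ZNF584, lower in 786-O and higher in 5637, beside 7.52%. The KRAB A box pattern was found in 18 of the 19 and not in ZNF473. ZNF274, one of the 19 and named after its values were seen, encodes a protein known to bring SETDB1 to the ends of zinc finger genes. It was at 2.29, 2.76 and 2.53 FPKM in shCBX7 and 1.84, 1.75 and 1.72 FPKM in control libraries of 786-O, and at 2.88, 2.80 and 2.66 FPKM against 2.43, 2.38 and 2.32 FPKM in 5637.

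**Figure D5:**
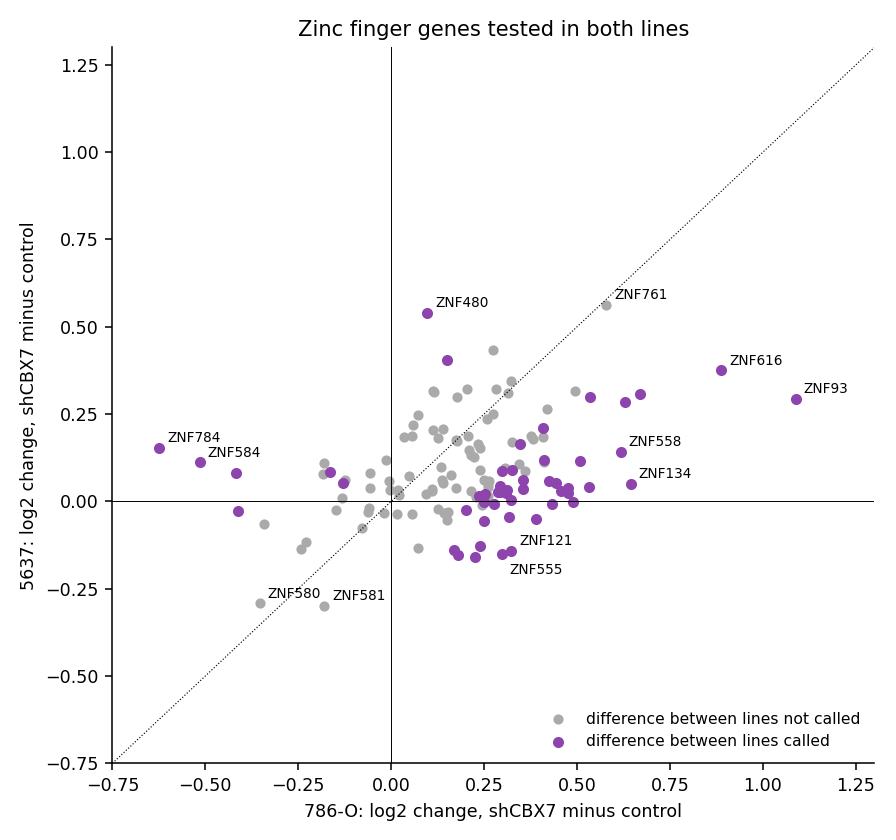
Each point is 1 of the 133 zinc finger genes tested in both lines, placed by its log2 change of FPKM + 1 (shCBX7 minus control) in 786-O (horizontal) and in 5637 (vertical), with purple for genes whose change differed between the lines by the limma interaction test and a dotted line where the changes are equal. Most points lie right of 0 and below the dotted line, ZNF761 lies near the line, and ZNF584 and ZNF784 lie at the upper left.

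The difference of the changes, 5637 minus 786-O, was tested in 1 fit over all 12 libraries. Of 174 genes tested, 48, or 27.6%, had a lower change in 5637 and 12, or 6.9%, a higher one, beside 24.3% and 29% of all genes. The share with a lower change in 5637 was therefore near the background, and the share with a higher change was below it. ZNF134, in which no KRAB pattern was found, was at 3.74, 3.67 and 3.47 FPKM in shCBX7 and 1.80, 1.87 and 2.23 FPKM in control libraries of 786-O. In 5637 it was at 7.99, 8.22 and 8.17 FPKM against 7.80, 7.88 and 7.77 FPKM (difference -0.59, SE 0.07, limma adjusted p = 2.74e-05). ZNF558 was at 2.39, 2.41 and 2.08 FPKM in shCBX7 and 1.09, 1.16 and 1.18 FPKM in control libraries of 786-O, and at 4.84, 4.78 and 4.77 FPKM against 4.38, 4.32 and 4.08 FPKM in 5637, called in both lines (difference -0.48, SE 0.064, limma adjusted p = 7.46e-05). For ZNF93 the difference was -0.79 (SE 0.068, limma adjusted p = 1.99e-06).

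The genes that moved in opposite directions were these. ZNF584, a KRAB gene, was at 3.72, 3.94 and 3.84 FPKM in shCBX7 and 5.66, 5.84 and 6.23 FPKM in control libraries of 786-O (log2 change -0.51, limma adjusted p = 2.18e-04). In 5637 it was at 4.05, 3.96 and 3.87 FPKM in shCBX7 and 3.61, 3.59 and 3.57 FPKM in control libraries (log2 change 0.11, limma adjusted p = 0.0181), a call that 4 alternatives removed. ZNF555 was at 0.906, 0.820 and 0.826 FPKM in shCBX7 and 0.553, 0.555 and 0.411 FPKM in control libraries of 786-O, and at 4.34, 4.21 and 4.21 FPKM against 4.80, 4.85 and 4.85 FPKM in 5637. The arms of these genes did not overlap in either line. ZNF121 was at 2.57, 2.60 and 2.48 FPKM in shCBX7 and 1.49, 2.06 and 2.01 FPKM in control libraries of 786-O, and at 18.7, 19.2 and 18.7 FPKM against 21.4, 21.0 and 20.6 FPKM in 5637. In 786-O the call of ZNF555 was lost under 2 alternatives and that of ZNF121 under 3.

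The other falls were each called in a single line, a difference tested only where an interaction value is given. In 786-O these were ZNF414, at 2.79, 2.78 and 2.73 FPKM in shCBX7 and 4.37, 4.19 and 3.56 FPKM in control libraries (log2 change -0.42, limma adjusted p = 0.00244), ZNF526 (log2 change -0.41, limma adjusted p = 0.00722), ZNF628 and ZNF699. In 5637 they were ZNF8, at 4.04, 3.82 and 3.73 FPKM in shCBX7 and 4.85, 4.64 and 4.75 FPKM in control libraries (log2 change -0.24, limma adjusted p = 0.00162), ZNF566, ZNF850, ZNF230 and ZNF83, whose log2 changes lay between -0.15 and -0.13. ZNF8 shares 19.4% of its windows with other genes. ZNF850 lost its call under 10 alternatives, ZNF566 under 6, ZNF230 under 4 and ZNF83 under 2, and ZNF699 lost its call in 786-O under 7.

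Further genes were called higher in a single line. In 786-O, ZNF77 (ratio 1.90) and ZNF792 (ratio 1.86) were called higher, and neither was called in 5637. The 786-O call of ZNF77 was lost under 3 alternatives (limma adjusted p = 0.0521 to 0.0562), and it gained a call in 5637 without control replicate 3 (limma adjusted p = 0.0454). ZNF114, a gene with few fingers, was near 0 in 786-O but at 4.19, 3.79 and 3.75 FPKM in shCBX7 and 2.32, 2.59 and 2.68 FPKM in control libraries of 5637 (log2 change 0.48, limma adjusted p = 6.06e-04). ZNF552 and ZNF836 were also called higher in 5637, at ratios of 1.32 and 1.48. In every one of these 5 genes the arms did not overlap in the line of the call.

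Genes for the partners of KRAB proteins were listed as corepressor, heterochromatin and DNA methylation genes. In 786-O, 11 of 35 tested were called lower and 5 higher, and in 5637 6 of 31 were called lower and 10 higher. In 786-O that is 31.4% called lower and 14.3% higher, beside 26.2% and 24.7% of all genes. In 5637 it is 19.4% called lower and 32.3% higher, beside 20.2% and 24.4% of all genes. TRIM28, the corepressor that KRAB domains bind, was at 65.7, 61.8 and 63.8 FPKM in shCBX7 and 117, 96.9 and 103 FPKM in control libraries of 786-O (log2 change -0.72, SE 0.0718, limma adjusted p = 1.51e-04). In 5637 it was at 79.2, 82.2 and 81.8 FPKM in shCBX7 and 74.95, 76.5 and 76.9 FPKM in control libraries (log2 change 0.09, SE 0.0219, limma adjusted p = 0.0144). The difference between the lines was 0.81 (SE 0.0792, limma adjusted p = 6.03e-06).

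Other genes of the list were called lower beside TRIM28 in 786-O. The maintenance DNA methyltransferase DNMT1 averaged 6.85 ± 0.310 FPKM in shCBX7 and 14.4 ± 0.247 FPKM in control cells, its partner UHRF1 11.6 ± 1.11 and 20.9 ± 1.03 FPKM, and the H3K9 methyltransferase SUV39H1 4.97 FPKM in shCBX7 and 8.40 FPKM in control cells (SD, n = 3 each). SETDB1 averaged 2.21 ± 0.102 FPKM in shCBX7 and 2.98 ± 0.230 FPKM in control cells, and CBX5, one of the heterochromatin protein 1 genes, 3.06 and 4.10 FPKM. EHMT2, MTA2, TRIM24, KDM1A and RCOR1 were also called lower, by log2 changes of -0.32 to -0.16. The genes called higher in 786-O were the histone-binding proteins RBBP4 (log2 change 0.69) and DAXX (0.28), the de novo DNA methyltransferases DNMT3B (0.62) and DNMT3A (0.25), and the deacetylase HDAC1 (0.22).

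In 5637 the changes of the list were smaller. CBX5 was called lower there too, at 20.9 FPKM in shCBX7 and 24.7 FPKM in control cells, and so were MORC3, ATF7IP, KDM1A, RCOR1 and RBBP4, with log2 changes between -0.23 and -0.09. UHRF1, SUV39H2, EHMT1, CHD3, HDAC1, MPHOSPH8, PPHLN1, SMARCAD1 and TRIM33 were called higher beside TRIM28, with log2 changes of 0.08 to 0.30. SETDB1 and DNMT1 were not called in 5637. Whether these changes bear on the zinc finger genes was not tested.

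A list of retroviral genes, imprinted genes and genes that act on imprinted loci, such as ZNF445, was mostly too low to test. Of 17 listed in the table of 786-O, 5 were tested, 0 were called higher, and PLAGL1 and ZNF445 were called lower (log2 changes -0.22 and -0.23). Of 16 in 5637, 7 were tested, 0 were called higher, and MEST and KCNQ1OT1 were called lower (log2 changes -0.15 and -0.25). The envelope genes ERVW-1 and ERVFRD-1 were listed at 0 in 786-O and under the filter in 5637. Retroelement copies outside genes were not analysed here.

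Overlap and shared sequence limit some of the values. The library kit was directional, but the sources used here give no strand setting for the counting, and 127 of the 240 genes overlap a gene on the opposite strand and 99 one on the same strand. Over 5% of 75-base windows were shared with other genes in 55. Among the genes with neither an overlap nor that much sharing, 20 were called higher and 3 lower of 46 in 786-O, and 15 higher and 2 lower of 55 in 5637, shares close to those of the whole set.

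Marker lists of other cell types were followed beside these genes. In 786-O, 3 of 10 urothelial markers reached 0.5 FPKM, with summed levels of 13.1 to 15.4 FPKM in shCBX7 and 8.23 to 9.28 FPKM in control libraries, and KRT5, KRT14 and UPK3A at 0. Of the 3, PPARG was higher on average (11.8 FPKM in shCBX7 and 6.56 FPKM in control), GATA3 lower (0.573 and 0.865 FPKM) and FOXA1 lower (0.984 and 1.11 FPKM). There 2 of 6 leukocyte markers reached that level, LAPTM5 and CD14, with sums of 8.44 to 9.43 FPKM in shCBX7 and 16.5 to 20.6 FPKM in control libraries, and PTPRC and CD3E at 0. For fibroblast markers it was 1 of 4, with sums of 2.67 to 3.13 FPKM in shCBX7 and 1.83 to 2.27 FPKM in control libraries, and for endothelial markers 0 of 4. In 5637 the sums of leukocyte markers were 38.7 to 39.5 FPKM in shCBX7 and 44.0 to 46.0 FPKM in control libraries (2 of 6 at 0.5 FPKM, CD3E at 0), and those of fibroblast markers 12.1 to 12.9 FPKM in shCBX7 and 14.2 to 14.7 FPKM in control libraries (1 of 4). Endothelial markers at that level numbered 0 of 3, and renal markers 2 of 8 with sums of 53.4 to 54.4 FPKM in shCBX7 and 53.6 to 55.3 FPKM in control libraries. The markers of the line's own tissue, the urothelial list, had sums of 695 to 699 FPKM in shCBX7 and 512 FPKM in each control library of 5637 (8 of 10). KRT5 and KRT17 made up most of these sums, with KRT17 averaging 313 FPKM in shCBX7 and 208.5 FPKM in control cells. The renal list had sums of 157 to 164 FPKM in shCBX7 and 163 to 172 FPKM in control libraries of 786-O (7 of 8). The part of the markers in the changes of the zinc finger genes was not tested.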

How the data were processed

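RNA-seq libraries from 2 human cell lines (3 shCBX7 and 3 control per line) were made with a strand-marking kit, according to the protocols in the labels. The deposited values are FPKM, in a table per line, as stated per the file headers. The aligner is not given in the sources used here, nor are the counter and its strand setting. The submitters' processing notes give mm10, a mouse build, for these human samples. Chromosome, start and end of all 58735 genes in the 786-O table equal those of GENCODE release 29, so positions are on GRCh38. The table of 5637 holds 29890 gene symbols, of which 29809 matched a single gene of the other table. Groups follow titles and cell line labels. In 5637, 2 control titles carry another number, and the control columns could be tied to the group and not to single samples. Columns without a group numbered 0.

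Low FPKM values are whole multiples of the worth of 1 read. Whole reads (within 0.01) were recovered for 100% of genes in 786-O and 93.9% in 5637. They give the depth and an alternative fit only.

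Values were tested as log2(FPKM + 1), for genes averaging 0.5 FPKM or more across a line's 6 libraries, with limma 3.58.1 (R 4.3.3, eBayes with trend), shCBX7 minus control. Genes with an adjusted p (Benjamini-Hochberg, over all genes tested) under 0.05 were called. The change in 5637 minus that in 786-O was tested as an interaction in a fit over 12 libraries. Standard errors (SE) are those of the fit. The fits were tested on simulated data with known changes. KRAB A box and C2H2 finger patterns were searched in the translated GENCODE coding sequences, the KRAB pattern in the first 260 residues, and promoters came from RefSeq (GRCh38.p14).

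Members and lists were chosen with earlier results of these data known. Named genes are CBX7; per line up to 10 rises and 10 falls among called members with a mean of at least 1 FPKM and arms that do not overlap; up to 10 members called in both lines in each direction pattern; the 5 highest control levels; up to 6 smallest interaction p; called cofactor genes; and the members of a cluster singled out. Alternatives were no filter, a mean of at least 1 FPKM, a pseudocount of 0.1, quantile normalization, median centring, no trend, the replicate number as a block, voom on recovered reads, each library left out, cluster gaps of 0.5 and 2 Mb, and, added after the data were seen, a correction for GC content and length. Count models were not run on the recovered reads, which were derived from FPKM and fitted with voom alone.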

Additional observations from a re-analysis of the deposited data

Results flagged for a closer look

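The limma interaction test marked a difference of the change between the lines in 12 zinc finger genes with the higher change in 5637 and in 48 with the lower change there. Among the named genes, the difference (log2 change in 5637 minus that in 786-O) was -0.79 for ZNF93, -0.59 for ZNF134, -0.48 for ZNF558, -0.45 for ZNF555 and -0.47 for ZNF121. It was 0.63 for ZNF584 and 0.78 for ZNF784. Groups of 3 libraries were too small for a search for outlying libraries.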

How the results depend on the processing

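The median log2 change in 786-O, 0.22, was 0.14 with no filter, 0.38 with a pseudocount of 0.1, 0.20 with quantile normalization and 0.41 with voom on recovered reads, and the count called higher was 39 of 80 at a mean of at least 1 FPKM. In 5637 the median, 0.05, was 0.0400 with no filter, 0.0909 with a pseudocount of 0.1, 0.0399 with median centring and 0.0344 with the GC content and length correction. A pseudocount of 0.1 left 7 genes with a higher change in 5637 than in 786-O. With a gap of over 2 Mb the median lay above that of all genes in 5 of 5 clusters in each line, and with 0.5 Mb in 9 of 9 in 786-O and 8 of 9 in 5637. For these the cause was not tested, beyond fewer genes or fewer clusters. Leaving out 1 library gave 39 to 54 genes called higher, 4 to 7 lower and medians of 0.21 to 0.24 in 786-O, and 41 to 48, 6 to 10 and 0.05 to 0.06 in 5637. The difference between lines was then called for 10 to 15 genes with the higher and 38 to 50 with the lower change in 5637. Replicate numbers did not pair the libraries (correlation of deviations 0.057 to 0.083 in 786-O and -0.031 to 0.023 in 5637, each library correlating best with its own number in 786-O alone), and with the replicate block 54 genes were called higher and 7 lower in 786-O and 48 and 7 in 5637, 53, 5, 47 and 6 of them shared with the fit without it, and ZNF581 was called lower in 786-O as well (limma adjusted p = 0.0180). Log2 changes near 0 turned sign for ZNF787 in 786-O (0.0276 without shCBX7 replicate 2, 0.0650 without control replicate 1, lowest -0.0991), ZNF787 in 5637 (0.00963 with the GC content and length correction), ZNF526 in 5637 (0.0142 without shCBX7 replicate 2, lowest -0.0573) and ZNF792 in 5637 (-0.0149 without control replicate 2, highest 0.0856), the other values with 1 library left out lying between these. Of the alternative values of named genes, 1160 kept direction and side of the threshold, 55 lost and 14 gained a call and 5 turned sign. At the lowest, a tested gene held 14 reads in a 786-O library and 17 in a 5637 library.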

Other observations

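The calls were also counted by number of finger patterns. In 786-O, of tested genes with 0 to 6 finger patterns 3 of 15 were called higher and 3 lower, with 7 to 10 patterns 16 of 36 were higher and 1 lower, with 11 to 15 patterns 29 of 60 were higher and 2 lower, and with 16 or more 11 of 30 were higher and 1 lower. In 5637 the same groups held 4 of 17 higher and 2 lower, 18 of 46 higher and 4 lower, 20 of 75 higher and 2 lower, and 10 of 41 higher and 1 lower. The group with the fewest fingers had a median transcript GC of 62.6% in 786-O, against 41.6% to 43.5% in the others. The clusters from ZNF554 to ZNF254 held 29 higher and 2 lower of 49 tested genes in 786-O and 15 and 2 of 53 in 5637, and those from there to the telomere 30 higher and 5 lower of 92 and 37 and 7 of 126. No explanation of these counts was tested.

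Among zinc finger genes of chromosome 19 with other names, ZFP36, which encodes an RNA-binding protein that speeds decay of cytokine messages, averaged 13.5 FPKM in shCBX7 and 7.93 FPKM in control cells of 786-O (log2 change 0.70, limma adjusted p = 1.53e-04), and KLF2 averaged 10.5 and 6.36 FPKM (log2 change 0.64, limma adjusted p = 0.00211). ZBTB45 and ZSCAN22 were called lower in 786-O (log2 changes -0.36 and -0.35) and higher in 5637 (0.34 and 0.22), and the difference between the lines was called for both (limma adjusted p = 7.68e-04 and 1.10e-04). These 4 genes were named after their values were seen.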
